A study of Homo sapiens with 6 samples.

Results

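miR-149 is the microRNA at the centre of the paper that belongs to these data, and its level was followed here in exosomes (small secreted membrane vesicles) of HCT116, an established human colorectal cancer cell line. It was found by name: of 2575 miRNA entries in the deposited count tables, 1 is called hsa-miR-149, and no entry carries that name with an arm. The line was at passage 16 to 19, and its exosomes were collected from conditioned medium by centrifugation. There were 6 libraries, 3 titled untreated, whose cells had received bacterial medium alone, and 3 titled as ETBF, whose cells had met enterotoxigenic Bacteroides fragilis, a gut anaerobe that secretes a toxin, for 6 h at a multiplicity of infection of 500. Groups here follow the sample titles. Read by file name, 6 of 6 libraries belong to the other group, so every direction below turns round if the file names are right, while the sizes of differences and their tests do not move.

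A microRNA is cut from a hairpin precursor, and either arm of the hairpin can be loaded into Argonaute, where bases 2 to 8 of the arm, the seed, pair with target mRNAs. miRNAs also leave cells inside exosomes and can be taken up by other cells, and RNA-binding proteins are known to favour some sequences for packaging. miR-149 has been described as a tumour-suppressor miRNA in several epithelial cancers. The paper, as known from elsewhere, reports that ETBF lowers exosomal miR-149-3p, the product of the 3′ arm.

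The sequences below show what the entry could be counting, since its name gives no arm. They come from RefSeq on GRCh38.p14, while the submitters' processing notes name GRCh37.p5. The hairpin lies on the plus strand at chr2:240456001-240456089, and capitals mark its mature arms, bases 15 to 37 and 56 to 76. In the arms themselves capitals mark the seed.
miR-149 hairpin: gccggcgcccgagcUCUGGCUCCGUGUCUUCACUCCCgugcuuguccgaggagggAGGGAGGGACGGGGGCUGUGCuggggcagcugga
miR-149-5p: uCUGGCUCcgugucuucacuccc
miR-149-3p: aGGGAGGGacgggggcugugc

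RefSeq holds 1 hairpin locus for miR-149. In GENCODE release 29 it lies in intron 1 of transcript GPC1-201 of GPC1, which encodes the heparan sulphate proteoglycan glypican-1, on the same strand and outside every annotated GPC1 exon. Of the 2575 entries, 829 name no arm, and RefSeq lists both arms for 14 of those. Of the 14, 4 had enough counts to test: miR-149, miR-1, miR-203a and miR-375. In older naming the plain name stood for the 5′ product of miR-149 and a star marked the 3′ product, but the deposited tables do not say which rule they follow. The level below is therefore that of miR-149 without an arm.

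The arms differ from each other in composition and from most tested miRNAs. miR-149-3p is 76.2% G and C and 61.9% G, above each of the 169 tested entries with a RefSeq sequence under the same name, whose highest values were 72.7% and 47.8%. miR-149-5p is 60.9% G and C, and 19 of the 169 were at or above that. Among those 19, miR-345-5p was called higher in the libraries titled ETBF (edgeR adjusted p under 0.05) and 0 were called lower, where 10.8% of all tested entries were called higher and 3.59% lower. The 19 had a median log2 fold change of 0.03 against -0.03 over all 195 tested entries. No listed entry with a RefSeq sequence shares the seed of miR-149-5p. The seed of miR-149-3p is shared by the entries below, which held at most 1 count in any library, so neither was tested.
miR-4728-5p: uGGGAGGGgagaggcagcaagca
miR-6785-5p: uGGGAGGGcguggaugauggug

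Reads from another miRNA had little sequence to share with miR-149. Over 2260 listed entries with a RefSeq sequence, the longest run of bases in common was 11 for miR-149-5p, with miR-3664-5p, and 9 for miR-149-3p, with 5 entries. How reads with mismatches or several positions were counted is not given in the sources used here.

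miR-149 was scarce in the libraries titled untreated and several-fold higher in those titled ETBF. Its raw counts were 6, 15 and 13 in titled untreated replicates 1, 2 and 3, out of 200207, 368923 and 293445 counts in all. They were 57, 56 and 84 in titled ETBF replicates 1, 2 and 3, out of 250425, 221981 and 417321. The groups did not overlap, and the shallowest library held the fewest counts of miR-149.

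Levels were expressed in CPM, counts brought to 1 common library size after TMM scaling, a normalisation that sets most entries to no net change. The titled untreated libraries stood at 29.2, 41.4 and 41.6 CPM, with exact 95% Poisson intervals of 10.7 to 63.5, 23.2 to 68.3 and 22.2 to 71.2 CPM. The titled ETBF libraries stood at 192.0, 252.6 and 260.2 CPM, with intervals of 145.4 to 248.7, 190.8 to 328.1 and 207.5 to 322.1 CPM. No molecular identifiers are named in the labels, so these intervals cover counting error only. Even so, the highest upper bound in the titled untreated group, 71.2 CPM, lay below the lowest lower bound in the titled ETBF group, 145.4 CPM. The floor of 3 counts corresponded to 8.29 to 14.6 CPM, and the level of miR-149 lay above it in each of the 6 libraries. In titled untreated replicate 1, however, the lower bound of 10.7 CPM lay under that library's floor of 14.6 CPM.

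**Figure D1:**
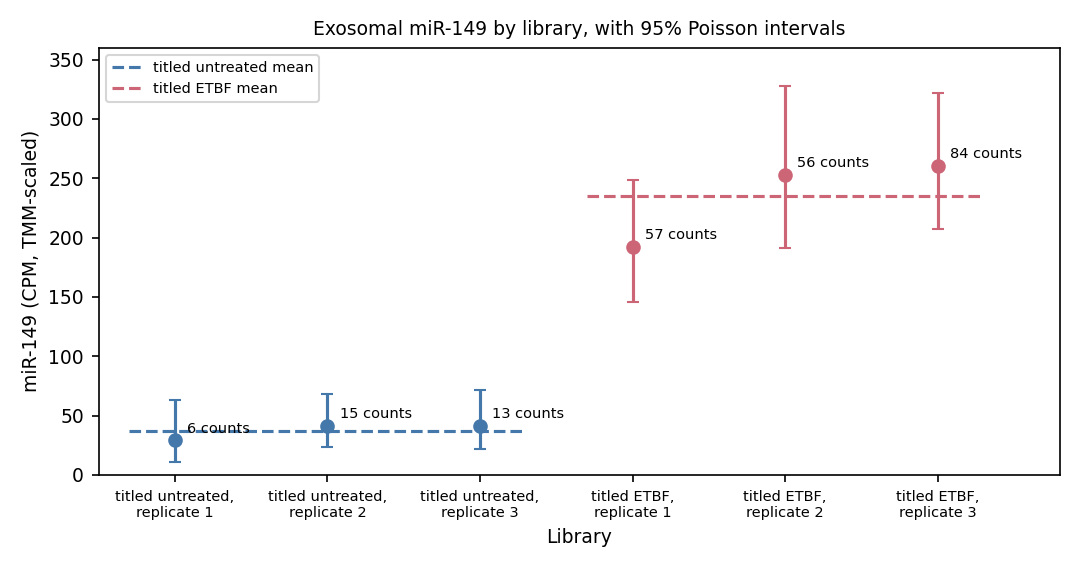
miR-149 in each of the 6 libraries, in CPM of the TMM-scaled library size, with exact 95% Poisson intervals as bars, raw counts as labels and dashed lines at the mean of each titled group. The titled untreated libraries sit between 29.2 and 41.6 CPM and the titled ETBF libraries between 192.0 and 260.2 CPM.

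As a share of all counts, miR-149 made up 0.00300%, 0.00407% and 0.00443% of titled untreated replicates 1, 2 and 3, with exact Clopper-Pearson 95% intervals from 0.00110% at the lowest to 0.00758% at the highest. It made up 0.0228%, 0.0252% and 0.0201% of titled ETBF replicates 1, 2 and 3, with intervals from 0.0161% to 0.0328%. In other words, 1 count in 22573 to 33368 was miR-149 in the titled untreated libraries, and 1 in 3964 to 4968 in the titled ETBF libraries.

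In rank, miR-149 stood at 198 of 417, 175 of 482 and 178 of 459 detected entries in the titled untreated libraries. It stood at 116 of 462, 104 of 446 and 108 of 476 in the titled ETBF libraries. It was thus in the middle of the detected entries in one titled group and within the upper 25.1% in the other, and it was among the abundant miRNAs in neither. By mean CPM, 179 of the 195 tested entries lay above it in the titled untreated group and 108 in the titled ETBF group. miR-149 met the low-count filter behind those 195 through the titled ETBF libraries, where it is high. Its low place among them in the titled untreated group is thus partly set by that filter.

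The titled untreated libraries averaged 37.4 ± 7.13 CPM and the titled ETBF ones 234.9 ± 37.4 CPM (SD, n = 3). The log2 fold change was 2.59 with a standard error (SE) of 0.23, a 6.03-fold difference (edgeR quasi-likelihood test, adjusted p = 8.18e-05). Each titled ETBF library exceeded each titled untreated one, and the 9 ratios between such pairs ran from 4.61 to 8.91. Within a group the highest library exceeded the lowest by 1.43 times (titled untreated) and 1.36 times (titled ETBF). An exact permutation of the 6 libraries gave a two-sided p of 0.1, the smallest that 3 against 3 allows. By the file names the log2 fold change would be -2.59, 6.03-fold lower after ETBF, which is the direction the published study reports for the 3′ arm.

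The share of tested entries that were called at an adjusted p under 0.05 was 14.4% in either direction and 10.8% for entries higher in the libraries titled ETBF. Groups that did not overlap were more common, at 39.0% of tested entries, of which those with the titled ETBF group higher made up 19.5% of all tested. miR-149 ranked 4 of 195 by p-value, after miR-6087, miR-7641 and miR-7-5p. It ranked 2 by upward log2 fold change, after miR-9-3p. That rank was 61 of 717 with no low-count filter and 4 of 285 with a 10 CPM filter. Without titled untreated replicate 3 it was 3 of 202. miR-149 was chosen with earlier results of these data known, so its ranks are descriptions only. miR-9-3p was named after its values were seen.

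The libraries also differed in composition, and that moved with the titled groups. Entries known to match structural RNAs, miR-7641, miR-6087 and miR-1246, took 16.1% to 28.3% of counts where the title was untreated and 0.531% to 0.927% where it was ETBF. With those entries left out of the fit and of the library sizes, the log2 fold change of miR-149 was 2.64 (SE 0.24, edgeR adjusted p = 7.57e-05). Counts give a share of the RNA in the preparation. A different amount of miR-149 in each vesicle and a different number of vesicles holding it therefore cannot be told apart. Colorectal epithelial markers (the miR-200 family, miR-192, miR-194 and miR-215) were detected, with 7 of 8 listed entries tested and a summed share of 3.25% to 3.64% in the titled untreated and 2.23% to 3.81% in the titled ETBF libraries. Muscle markers (3 of 3 listed entries tested) summed to 1.77% to 2.01% and 1.36% to 1.96%, blood markers (5 of 7 tested) to 0.0712% to 0.0724% and 0.0527% to 0.0807%, the liver marker miR-122-5p to 0.556% to 0.698% and 0.372% to 0.585%, and stromal and endothelial markers (4 of 4 tested) to 1.05% to 1.25% and 0.785% to 1.20%. No listed marker was at 0 in all 6 libraries, and the part of the markers in the miR-149 result was not tested.

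The difference was of similar size against single miRNAs in the same library, a measure that needs no library scaling. Per 1000 counts of miR-16-5p, a miRNA widely used as a reference in extracellular RNA work, there were 22.2, 35.3 and 36.7 counts of miR-149 in titled untreated replicates 1, 2 and 3. There were 149.6, 215.4 and 197.6 in titled ETBF replicates 1, 2 and 3. That is a log2 difference of 2.60. Per 1000 counts of miR-21-5p, an oncogenic miRNA abundant in colorectal cells, the group means were 0.412 ± 0.0730 and 2.66 ± 0.511 (SD, n = 3), a log2 difference of 2.69. Per 1000 counts of miR-26a-5p they were 1.53 ± 0.373 and 8.63 ± 1.62 (SD, n = 3), a log2 difference of 2.51. The groups did not overlap for any of these ratios (exact permutation p = 0.1 for each). The reference miRNAs themselves had log2 fold changes near 0, so these ratios largely restate the fitted difference and add no separate evidence. The log2 fold changes of miR-21-5p and miR-16-5p changed sign with the setting. By edgeR, adjusted p was 0.851 for miR-21-5p.

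By edgeR the error of miR-149 was close to that of counting alone, as far as 3 libraries per group can tell. By DESeq2 it was larger. Pooled over libraries there were 34 counts in the titled untreated group and 197 in the titled ETBF group, a ratio of 6.06 per TMM-scaled library size with an exact 95% counting interval of 4.19 to 9.0. Without TMM, per total counts, the ratio was 5.62 (3.89 to 8.34). The spread of the counts over a group's libraries, as chi-square over degrees of freedom where counting error alone gives about 1, was 0.310 in the titled untreated and 1.76 in the titled ETBF libraries. The medians over 20 entries of similar mean CPM over the 6 libraries were 0.721 and 1.24. In the titled untreated group miR-149 stood at 37.4 CPM, below the 101 to 181 CPM at which the 20 were chosen. The 20 were thus not of its level in that group. Of those 20, 6 lay below miR-149 in the titled untreated and 14 in the titled ETBF libraries. The SE that counting alone gives to the log2 fold change is 0.27, larger than the fitted 0.23. The quasi-likelihood test can place the variance below that of the fitted distribution, and the quasi-dispersion was 0.700 for miR-149 against a median of 0.672. A fitted SE under the counting SE was seen for 40 of the 195 tested entries. Tests that do not go below that variance gave 0.27 (edgeR likelihood-ratio test, adjusted p = 1.11e-20) and 0.35 (DESeq2, adjusted p = 1.66e-12), with log2 fold changes of 2.59 and 2.62.

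Entries of similar level were taken as the 10 tested entries just above and the 10 just below miR-149 in mean CPM over the 6 libraries, from 101 to 181 CPM around its own 136. Of the 20, 3 were called, all higher in the libraries titled ETBF, and 17 were not. That is 15.0%, near the 14.4% over all tested entries. In the wider window of 45 entries within 2-fold of its level, 3 were called, a lower share of 6.67%. Their groups did not overlap for 7 of 20, against 39.0% over all tested entries, and their median log2 fold change was -0.05. None reached the log2 fold change of miR-149. As miR-149 was chosen with earlier results of these data known, its place above them is a description only. The 3 that were called were miR-95-3p at 1.54 (SE 0.33), miR-139-5p at 1.48 (SE 0.28) and miR-320b at 1.13 (SE 0.19), with edgeR adjusted p of 0.0157, 0.00885 and 0.00578.

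miR-95-3p, described as promoting colorectal tumour growth, held 7, 38 and 14 counts in titled untreated replicates 1, 2 and 3 and 60, 45 and 56 in titled ETBF replicates 1, 2 and 3. Its titled untreated replicate 2 stood above the other two, and without that library its log2 fold change was 2.23. miR-139-5p, a tumour-suppressor miRNA of the colon, held 15, 23 and 28 counts and then 45, 42 and 92. miR-320b, one of a family processed without Drosha, held 26, 44 and 30 counts and then 78, 44 and 90. In CPM the titled groups of these entries did not overlap.

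Of the 3 nearest entries on each side, 4 were not called. miR-589-5p, the next above miR-149, went from 126.4 ± 13.98 to 149.2 ± 39.0 CPM (SD, n = 3). miR-141-3p, an epithelial miRNA of the miR-200 family, went from 146 ± 10.8 to 130 ± 20.2 CPM. Below miR-149 stood miR-411-5p, from an imprinted miRNA cluster, at 163 ± 30.8 and 102 ± 26.8 CPM, and miR-451a, a red-cell miRNA, at 132 ± 23.3 and 123 ± 32.8 CPM. Among these 4, the groups of miR-411-5p alone did not overlap (log2 fold change -0.66, SE 0.24, edgeR adjusted p = 0.0910), and it passed with no filter, with the likelihood-ratio test and without titled ETBF replicate 1.

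**Figure D2:**
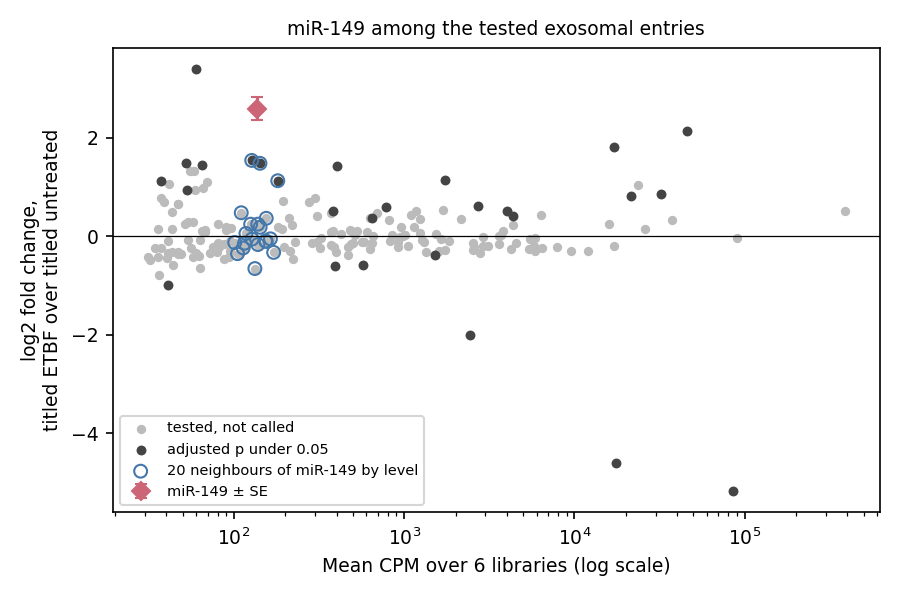
Log2 fold change of each of the 195 tested entries, titled ETBF over titled untreated, against its mean CPM over the 6 libraries on a log axis, with called entries dark, the 20 neighbours of miR-149 by level ringed and miR-149 as a diamond with its SE. miR-149, at 2.59, lies above its ringed neighbours, which run from -0.66 to 1.54.

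The entries whose level followed miR-149 most closely over the 6 libraries were, by Pearson's r of log2 CPM, miR-186-5p (0.989), miR-7-5p (0.989), miR-100-5p (0.988), let-7g-5p (0.982) and miR-92b-3p (0.981). These values describe 6 points that share libraries and scaling, and most of each comes from the difference between the titled groups. Of 194 other tested entries, 15 had r over 0.9, and 13 of those were called higher, against 20 called higher among all 194. Because r mostly follows the difference between the titled groups, such calls are likely for entries with high r and add no separate evidence. A further 12 entries had a negative r of more than 0.9 in size. Within groups, after subtraction of each group's mean, r with miR-149 was 0.891 for miR-186-5p, 0.843 for miR-100-5p, 0.791 for let-7g-5p, 0.545 for miR-92b-3p and 0.376 for miR-7-5p. The RefSeq sequences of 4 of them, shown to set their seeds beside those of miR-149, share neither seed with it.
miR-7-5p: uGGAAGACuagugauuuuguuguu
miR-100-5p: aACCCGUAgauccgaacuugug
let-7g-5p: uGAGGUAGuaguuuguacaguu
miR-92b-3p: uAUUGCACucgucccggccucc

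miR-186-5p held 201, 431 and 337 counts in titled untreated replicates 1, 2 and 3 and 591, 540 and 883 in titled ETBF replicates 1, 2 and 3, a log2 fold change of 1.14 (SE 0.13). miR-7-5p, a repressor of the EGF receptor, held 3286, 6638 and 5263 and then 22535, 15457 and 25777 counts, a log2 fold change of 2.14 (SE 0.12). miR-100-5p, a repressor of mTOR, held 1313, 3401 and 2212 and then 6092, 6734 and 9451 counts, a log2 fold change of 1.81 (SE 0.19). In CPM, the groups of each of these 3 did not overlap and each was called. let-7g-5p, of the growth-restraining let-7 family, was called with a smaller log2 fold change of 0.83 (SE 0.12). miR-92b-3p held only 7, 14 and 11 and then 15, 11 and 17 counts and was not called (0.49, SE 0.24, edgeR adjusted p = 0.296), although its CPM groups did not overlap. Lowest in r were miR-7641 and miR-6087, at -0.993 and -0.992, and miR-1246 at -0.976.

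**Figure D3:**
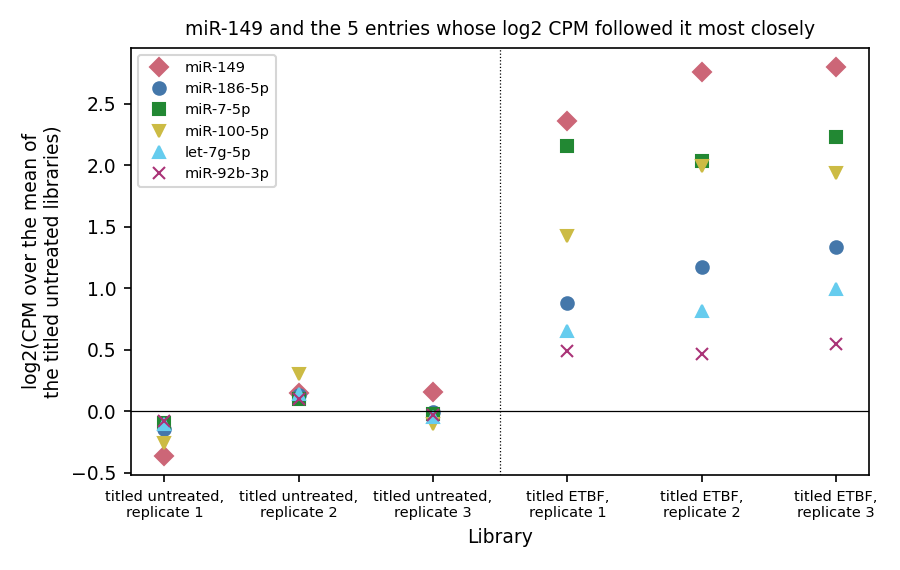
log2 CPM in each of the 6 libraries of miR-149 and the 5 entries most like it, each relative to the mean CPM of its own titled untreated libraries. All 6 are higher in the 3 titled ETBF libraries, and miR-149 has the highest point in each of those.

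Exosome loading has been linked to the tetranucleotide GGAG, which the RNA-binding protein hnRNPA2B1 recognises. The letters GGAG were searched on the miRNA strand alone. miR-149-5p does not hold them, and miR-149-3p does, starting at its base 3, as the first line below shows with the motif in capitals. The motif was found in 15.8% of the 2260 listed entries with a RefSeq sequence and in 10 of the 169 tested ones (5.92%). Of those 10, miR-1246 passed as lower where the title was ETBF, 0 passed as higher and 9 did not pass, a share near the 14.4% called in either direction over all tested entries. Their median log2 fold change was -0.20, against -0.03 over all tested entries, and 8 of the 10 were negative. Of the 169 tested entries with a sequence, 87 were negative and 13.0% were called in either direction. The titled groups did not overlap for 6 of the 10, against 38.5% of the 169. The count of called entries with the motif was 0 when the entries matching structural RNAs were left out, 3 with no low-count filter and 3 without titled ETBF replicate 1.
miR-149-3p: agGGAGggacgggggcugugc
miR-1246: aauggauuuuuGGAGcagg

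The published study is known to deal with T helper 17 (Th17) cells, which make interleukin-17, and with METTL14, a subunit of the methyltransferase that places N6-methyladenosine on RNA, including primary miRNA transcripts. Of 18 listed miRNAs linked in the literature to Th17 differentiation, 11 were tested. Of these, 4 passed as higher where the title was ETBF, 0 as lower and 7 did not pass, where 10.8% of all tested entries were called higher. The median log2 fold change was 0.34 against -0.03 over all tested entries. The 4 were miR-132-3p (1.45, SE 0.40), miR-96-5p (0.51, SE 0.14), miR-183-5p (0.51, SE 0.14) and miR-10a-5p (0.40, SE 0.11). miR-183-5p and miR-96-5p come from 1 cluster and are described as promoting Th17 function, as is miR-132-3p, whereas miR-10a-5p is described as restraining it. miR-132-3p went from 33.4 ± 3.70 to 95.9 ± 44.8 CPM and miR-96-5p from 312 ± 44.0 to 447 ± 42.3 CPM (SD, n = 3). miR-132-3p met the low-count filter through the titled ETBF libraries, where it is high, so its place in the count of 4 is partly set by that filter. The 2 most abundant that did not pass were miR-21-5p (-0.03, SE 0.12) and miR-182-5p (0.44, SE 0.15). None of the list was called without titled untreated replicate 3 or without titled ETBF replicate 3, 2 were called without titled untreated replicate 2 or without titled ETBF replicate 2, and 1 was called with library size only.

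Of 10 miRNAs whose maturation has been reported to depend on METTL14 or its partner METTL3, all were tested. Of these, 0 passed as higher where the title was ETBF, 2 as lower and 8 did not pass, with a median log2 fold change of -0.12. The share of tested entries lower in that group was 3.59%. The 2 were miR-1246 (-2.0, SE 0.22), which is also among the entries matching structural RNAs, and miR-375 (-0.61, SE 0.17), an epithelial and endocrine miRNA that went from 471 ± 95.6 to 314 ± 35.7 CPM (SD, n = 3). miR-143-3p (-0.15, SE 0.13) and miR-25-3p (0.34, SE 0.13), the most abundant of the others, did not pass. The call of miR-375 held in 10 of 17 settings, with adjusted p up to 0.155. The count for the list was 1 in each of the following cases: without titled untreated replicate 2 or 3, and without titled ETBF replicate 2 or 3.

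miR-149 kept its call in 17 of 17 tested settings, with a log2 fold change that ran from 2.49 to 2.69 (5.63-fold to 6.46-fold) and adjusted p up to 0.000614. The lowest value was that without titled ETBF replicate 3 and the highest that without titled ETBF replicate 1.

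**Figure D4:**
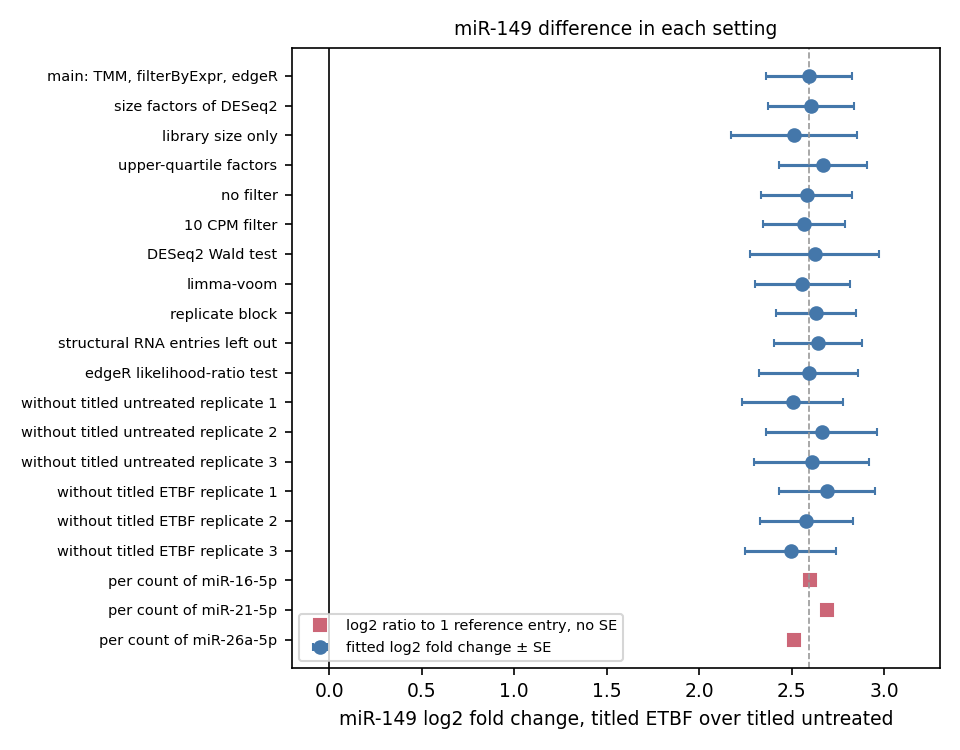
miR-149 log2 fold change, titled ETBF over titled untreated, in 17 fitted settings with SE bars and as 3 log2 ratios to a single reference entry without SE, with a solid line at 0 and a dashed line at the value of the main setting. Values run from 2.49 to 2.69.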

How the data were processed

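Small RNA libraries were made from 100 ng of total RNA each, per the labels' protocols. Per the submitters' processing notes, the authors used Trimmomatic, FastQC and featureCounts with build GRCh37.p5; their versions and the aligner are unstated. The deposited tables hold raw counts per miRNA entry, with 200207 to 417321 counts per library. Groups came from the sample titles, 3 libraries each. Whether a replicate is its own culture is unstated, so the tests measure only the spread among these libraries, possibly technical.

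edgeR's filterByExpr (minimum count 10) left 195 of 2575 entries, holding at least 99.6% of each library's counts. Counts were TMM-scaled (factors 0.776 to 1.19) and tested with edgeR (quasi-likelihood, two-sided), p being adjusted over the 195 by Benjamini-Hochberg at a threshold of 0.05. SE was derived from the log2 fold change and its F statistic. Levels used for r had a prior count of 2.

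miR-149 and the miRNA lists were chosen with earlier results of these data known. Entries were named by rule: miR-149, its 3 nearest neighbours by level on each side and any called among 20, the 5 most like it, in the Th17 and METTL lists those that passed and the 2 most abundant that did not, called entries with GGAG or a shared seed, and the reference and structural entries. miR-345-5p was named after its values were seen. Of the 195, 169 matched 1 RefSeq mature sequence by name (86.7%). The likelihood-ratio test was added after the data were seen; other alternatives were planned. Scripts were tested on simulated data. DESeq2 1.42.0, limma 3.58.1 and edgeR 4.0.16 ran in R 4.3.3.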

Additional observations from a re-analysis of the deposited data

How the results depend on the processing

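miR-149 kept its direction and its side of the threshold in all 17 fitted settings. Its log2 ratio to miR-16-5p, miR-21-5p and miR-26a-5p was 2.60, 2.69 and 2.51, where an exact permutation p of 0.1 is the smallest 3 against 3 libraries allow. Without single replicates the fitted log2 fold change of miR-149 ranged from 2.49 to 2.69. The number of called entries, 28, was 51 with no filter and 54 with edgeR's likelihood-ratio test, and 17 to 59 without single replicates: 17 without titled untreated replicate 3 or titled ETBF replicate 3, and 59 without titled ETBF replicate 1. Of the calls, 75% were higher in the main setting, against 85.7% with upper-quartile factors, 88.2% without the structural RNA entries and 64.4% without titled ETBF replicate 1. Called neighbours of miR-149 numbered 3 to 4 throughout. Among the 45 entries within 2-fold of its level 3 were called, 6.67% against 14.4% over all tested entries. Called Th17-linked miRNAs, 4, were 1 with library size only, 2 with the 10 CPM filter, 2 with limma-voom and 0 to 6 without single replicates. Called METTL-linked miRNAs, 2, were 1 with library size only, 1 with DESeq2, 1 with limma-voom, 1 without the structural RNA entries and 1 to 3 without single replicates. Called entries with GGAG, 1, were 2 with upper-quartile factors, 3 with no filter, 3 with the likelihood-ratio test, 0 without the structural RNA entries and 1 to 3 without single replicates. The sign changed, with no call, for miR-451a (0.013 with upper-quartile factors, -0.32 to 0.055 without single replicates), miR-21-5p (0.032 with upper-quartile factors, 0.016 without the structural RNA entries, -0.091 to 0.015 without single replicates) and miR-16-5p (-0.039 to 0.15 without single replicates). The cause of these moves was not tested, apart from leaving out miR-1246 with the structural RNA entries, which removes it from the METTL and GGAG counts.

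The titles number the replicates alike in both groups, but nothing ties a number to a shared culture. Deviations from the group means correlated at 0.177, 0.103 and 0.0523 for same-numbered libraries, and titled ETBF replicate 3 correlated more with titled untreated replicate 2 (0.0734). The remaining differently numbered pairs ran from -0.155 to -0.011. Whether replicates are paired by number was not tested. With the replicate block, miR-149 had 2.63 (adjusted p = 4.82e-05), and there were 38 calls, of which 26 were among the 28, and 2 called entries with GGAG.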

Other observations

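Listed entries near MIR149 held few or no counts in these libraries. Of 9 other listed entries whose RefSeq loci on GRCh38.p14 lie within 5 Mb of MIR149 on chromosome 2, 7 had no count in any library, and the other two, miR-2467-5p and miR-3133, held at most 1 and 2 counts in a library. None was tested.

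Several Th17-linked miRNAs were too scarce to test. miR-155-5p, a regulator of T cell and macrophage activation, held 1 to 10 counts per library, and miR-18a-5p 3 to 10. miR-326, miR-212-3p and miR-20b-5p held at most 2. miR-301a-3p and miR-384 had 0 counts in each of the 6 libraries, for which 3 counts, 8.29 to 14.6 CPM, is the limit that a count of 0 allows. These entries were named after their values were seen.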
